A study of Macaca mulatta with 24 samples.

Results

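The transcriptional response of omental white adipose tissue (WAT) to combined testosterone and Western-style diet (*T* + *WSD*) was measured in 12 of the 24 female rhesus macaques of the study, 6 *T* + *WSD* animals set against 6 control (*C*) animals. These animals were chosen by their treatment labels alone. The *C* animals carried cholesterol implants and ate monkey chow, and the *T* + *WSD* animals carried testosterone implants and ate a high-fat Western-style diet, in both cases for 3 years. The other 12 animals, 6 given testosterone on chow (*T*) and 6 given the diet with control implants (*WSD*), entered the same statistical fit and are described only where a gene's level in *T* + *WSD* was compared with theirs. The labels call the animals young adults and give an age of 4 years, while the study's methods give a greater age at biopsy. The comparison changes hormone and diet together, so neither agent can be told apart from the other in it. According to the methods, the animals were picked from larger groups because they showed the fat mass and insulin findings of their group, and each library came from a piece of whole frozen tissue.

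The omentum is a visceral fat depot that hangs in the abdominal cavity. Most of its volume is lipid-filled adipocytes, which store triglyceride and secrete hormones such as leptin and adiponectin. A single layer of mesothelial cells, an epithelium-like lining with keratins, tight junctions and desmosomes, covers its surface. Between them lie capillaries with their endothelial and mural cells, fibroblasts and progenitors, and immune cells, among which lipid-associated macrophages gather around large or dying adipocytes in obesity. Testosterone acts as an androgen or, after aromatization, through the oestrogen receptors. Since whole tissue was sequenced, fewer cells of a type and less RNA per cell cannot be told apart in any result.

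Between 6899185 and 22040690 reads were counted on genes in each of the 12 libraries, with medians of 20293398 in *C* and 20501758 in *T* + *WSD*. In 4 libraries, 2 in each group (replicates 1 and 2 of *C*, 7 and 8 of *T* + *WSD*), the unnamed gene ENSMMUG00000038258 took 9.92% to 54.7% of the counts, against 1.32% to 2.51% in the other 8. *C* replicate 1 stood apart. Its summed mesothelial markers reached 40399 CPM (counts scaled to the TMM-normalized library size), where the other *C* animals ran from 2921 to 10187. The adipocyte markers of the same animal summed to 2963 CPM, where the other *C* animals ran from 13051 to 22353. It also held the lowest endothelial sum of the 12 animals, 1398 CPM. Results without this animal are given for many, but not all, of the calls that it decided. *T* + *WSD* replicate 8 had the lowest mesothelial sum, 399 CPM. The defining adipocyte markers *ADIPOQ* and *PLIN1* were abundant in all 12 libraries, at no less than 498 and 315 CPM.

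The *T* + *WSD* and *C* animals differed in 1522 of 15207 tested genes (10%), where a call needed a fold change over 1.5 and an edgeR adjusted p below 0.05. Of these, 718 (4.72%) were higher and 804 (5.29%) were lower. The median log2 fold change was -0.04 over all tested genes, 0.99 over the called higher genes and -1.18 over the called lower genes. All 6 *T* + *WSD* animals lay above every *C* animal for 531 tested genes (3.49%) and below every *C* animal for 626 (4.12%). Among the called genes the groups were separated in this way for 351 of the higher and 332 of the lower genes. Without *C* replicate 1 the count was 900 (474 higher and 426 lower), of which 860 were also called with it. Among the 8 libraries in which ENSMMUG00000038258 was low, 4 in each group, 78 genes were called (40 higher and 38 lower), each also called over all libraries. In that fit 5 of 49 gene lists of cell types and pathways held a called member, against 40 over all libraries. These were 3 iron and antioxidant, 2 epithelial junction, 1 angiogenic, 1 hypoxia and 1 steroid receptor or enzyme genes. The plot of fold change against level shows the spread of these genes.

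**Figure D1:**
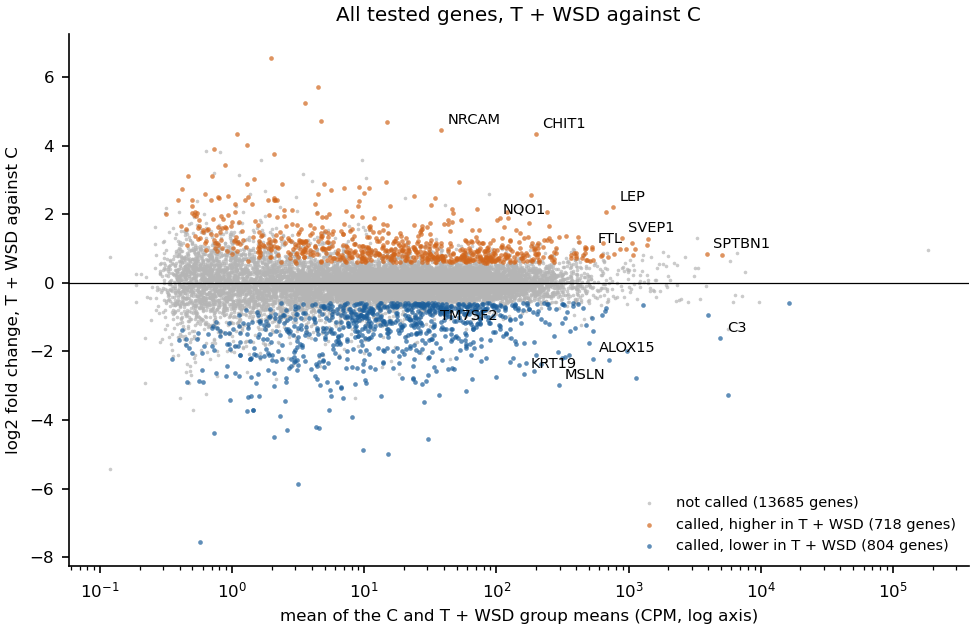
Each point is 1 of the 15207 tested genes, with the mean of the *C* and *T* + *WSD* group means on the horizontal log axis (CPM) and the log2 fold change of *T* + *WSD* against *C* on the vertical axis. Orange points are the 718 genes called higher, blue points the 804 called lower and grey points the genes not called, with 12 genes of the text labelled.

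Among named genes with separated groups, the largest relative increases were in genes of low level in *C*. *RNF157*, a ubiquitin ligase gene, ran from 0.506 to 7.89 CPM (median 2.18) in *C* and from 12.6 to 32.8 CPM (median 26.2) in *T* + *WSD*. Its log2 fold change was 2.94 ± 0.68 (SE, n = 6 per group; edgeR adjusted p = 0.00774). *TM4SF19*, a tetraspanin-like gene expressed in macrophages, ran from 0.328 to 8.30 CPM (median 1.08) in *C* and from 9.33 to 36.2 CPM (median 12.5) in *T* + *WSD* (log2 fold change 2.79 ± 0.79, edgeR adjusted p = 0.0197). The *T* + *WSD* animals also lay above every *C* animal for *CCDC136*, with a highest *C* value of 2.19 and a lowest *T* + *WSD* value of 3.26 CPM, and for *WDR64*, with 1.02 and 1.29 CPM. Their log2 fold changes were 2.72 ± 0.49 (edgeR adjusted p = 0.00296) and 2.87 ± 0.67 (edgeR adjusted p = 0.00844). *GPR158*, an orphan receptor gene, was called at an adjusted p of 0.0466, but the call was lost in 10 of the 12 fits that left out 1 animal, with adjusted p up to 0.128. The call of *TM4SF19* was lost only without *T* + *WSD* replicate 7, at an adjusted p of 0.0508. The chitotriosidase gene *CHIT1*, a product of lipid-laden macrophages, rose from a range of 0.113 to 79.2 CPM in *C* to 139 to 1225 CPM in *T* + *WSD* (log2 fold change 4.33 ± 1.13, edgeR adjusted p = 0.0136). *STMN2*, *MMP7*, *BHMT2* and *NRCAM* completed the 10 largest increases, and their log2 fold changes lay between 4.44 and 6.55. *STMN2* had at most 3 counts in any *C* library, so its fitted value is no estimate of a fold change.

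Among genes with separated groups, *SPTBN1*, *AKAP12*, Metazoa_SRP, *SVEP1* and *CFD* gained most in mean CPM. *SPTBN1*, which encodes the beta spectrin of the membrane skeleton, ran from 1871 to 3435 CPM (median 2915) in *C* and from 3982 to 6280 CPM (median 4848) in *T* + *WSD*. Its log2 fold change was 0.84 ± 0.21 (edgeR adjusted p = 0.0109). *AKAP12*, a kinase anchoring scaffold, ran from 516 to 1093 CPM (median 833) in *C* and from 1173 to 2830 CPM (median 1990) in *T* + *WSD* (log2 fold change 1.28 ± 0.25, edgeR adjusted p = 0.00367). *SVEP1*, a large extracellular matrix protein of mesenchymal cells, rose from a median of 510 CPM (338 to 728) to 1164 CPM (907 to 2032), with a log2 fold change of 1.30 ± 0.23 (edgeR adjusted p = 0.00295). No call of *SPTBN1*, *AKAP12* or *SVEP1* was lost when any 1 animal was left out. The entry Metazoa_SRP, a signal recognition particle RNA with near-identical copies in the genome, was another of these 5 (log2 fold change 2.06 ± 0.60), and its counts are uncertain for that reason.

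The adipocyte list held 17 tested markers, and 2 of them, *LEP* and *CFD*, were called, both higher, a share near the 10% called over all tested genes. The count was 1 without *C* replicate 1. Of the 17, 15 had a positive log2 fold change, and the median was 0.54. *LEP*, which encodes the satiety hormone leptin, ran from 4.39 to 673 CPM (median 272) in *C* and from 592 to 1576 CPM (median 1350) in *T* + *WSD*, with 5 of 6 *T* + *WSD* animals above every *C* animal. Its log2 fold change was 2.20 ± 0.74 (edgeR adjusted p = 0.0442), and the call was lost in 10 of the 12 fits that left out 1 animal, with an adjusted p of 0.0544 without *C* replicate 1 and of up to 0.0944. *CFD* encodes adipsin, the serine protease that adipocytes secrete into the alternative complement pathway. It ran from 415 to 1009 CPM (median 637) in *C* and from 1029 to 1619 CPM (median 1219) in *T* + *WSD*, with no overlap (log2 fold change 0.99 ± 0.26, edgeR adjusted p = 0.0132), and kept its call in every such fit. The adiponectin gene *ADIPOQ* had medians of 916 CPM in *C* and 1158 CPM in *T* + *WSD*, and the lipid droplet coat gene *PLIN1* of 1469 and 2037 CPM. The tests of *ADIPOQ* (log2 fold change 0.50 ± 0.32, edgeR adjusted p = 0.282) and *PLIN1* (0.54 ± 0.30, edgeR adjusted p = 0.224) did not pass. The summed adipocyte markers ran from 20595 to 29181 CPM in *T* + *WSD*, above the 13051 to 22353 CPM of the *C* animals other than replicate 1 in 5 of 6 animals.

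**Figure D2:**
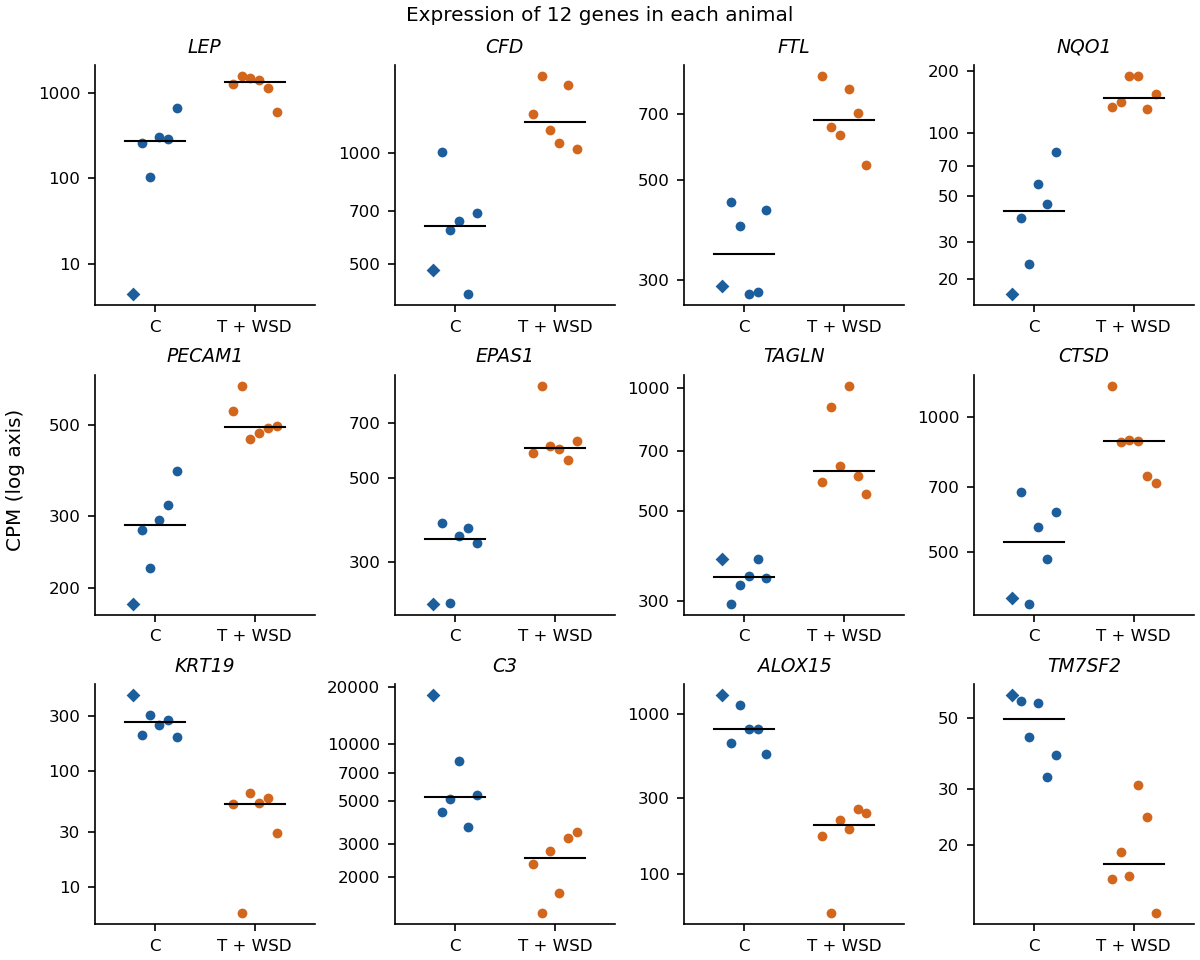
Each panel shows 1 gene, with the CPM of each of the 6 *C* animals (blue) and 6 *T* + *WSD* animals (orange) on a log axis and a black line at the group median. The diamond is *C* replicate 1, which held the lowest *LEP* value (4.39 CPM) and the highest *C3* value (18030 CPM), and the groups overlap only for *LEP*.

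Genes that store, make and release lipid changed in small numbers. For comparison, 4.72% of all tested genes were called higher and 5.29% lower. Of 9 tested lipid droplet genes, *PLIN3* was called, higher. *PLIN3* encodes a droplet coat protein, and its medians were 17.6 CPM in *C* and 37.0 CPM in *T* + *WSD* with overlapping ranges (log2 fold change 0.89 ± 0.26, edgeR adjusted p = 0.0217). Leaving out *C* replicate 3 or *T* + *WSD* replicate 10 ended this call (adjusted p = 0.0537 and 0.0741). Of 14 triglyceride synthesis genes only *MOGAT1* was called, at levels of at most 1.94 CPM, and its call was lost in 9 of the 12 fits that left out 1 animal. None of 12 fatty acid synthesis genes was called by edgeR or DESeq2, with 2 at an unadjusted p under 0.05 and a median log2 fold change of -0.26. *FASN*, the fatty acid synthase, spanned 190 to 18560 CPM (median 6679) in *C* and 1585 to 4259 CPM (median 3227) in *T* + *WSD*. The *C* animals thus lay both above and below the *T* + *WSD* animals, and the test did not pass (log2 fold change -1.35 ± 0.59, edgeR adjusted p = 0.116). Without *C* replicate 1, the lowest animal at 190 CPM, *FASN* passed at an adjusted p of 0.0283 with a log2 fold change of -1.59. None of the 18 fatty acid oxidation genes was called by either tool, 0 had an unadjusted p under 0.05, and their log2 fold changes lay between -0.38 and 0.32.

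Among 18 lipolysis genes, 3 were called higher and 1 lower, against 4.72% and 5.29% of all tested genes. The counts were 2 and 0 without *C* replicate 1. *PDE3A*, a phosphodiesterase that breaks down cyclic AMP, ran from 29.2 to 45.5 CPM in *C* and from 52.3 to 67.0 CPM in *T* + *WSD* without overlap (log2 fold change 0.64 ± 0.16, edgeR adjusted p = 0.0100). *PRKAR1A*, a regulatory subunit of the cyclic AMP-dependent kinase, ran from 390 to 626 CPM in *C* and from 294 to 377 CPM in *T* + *WSD*, also without overlap (log2 fold change -0.61 ± 0.13, edgeR adjusted p = 0.00560). Both lay close to the 1.5-fold threshold. The fold change of *PRKAR1A* fell under it in 4 fits that left out 1 animal and that of *PDE3A* without *C* replicate 3, with adjusted p of at most 0.0195 and of 0.0283. The natriuretic peptide clearance receptor *NPR3*, which removes a lipolytic hormone, had medians of 21.1 CPM in *C* and 112 CPM in *T* + *WSD*, and the anti-lipolytic adenosine receptor *ADORA1* of 11.9 and 26.4 CPM. These were called at adjusted p of 0.0379 and 0.0456, and the calls were lost in 10 and 9 of the 12 fits that left out 1 animal. The hormone-sensitive lipase *LIPE* and lipoprotein lipase *LPL*, both on the adipocyte list, had log2 fold changes of 0.74 and 0.87 and were not called.

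The called cholesterol synthesis genes were lower and the called efflux and storage genes higher. Of 16 genes of cholesterol synthesis and its control, 3 were called lower, against 5.29% of all tested genes, and none higher, 14 had a negative log2 fold change, and the median was -0.57. *TM7SF2*, a sterol reductase of the pathway, ran from 32.7 to 59.1 CPM (median 49.8) in *C* and from 12.2 to 30.9 CPM (median 17.4) in *T* + *WSD*. The groups did not overlap (log2 fold change -1.27 ± 0.25, edgeR adjusted p = 0.00385), and the call was kept in every fit that left out 1 animal. *FDPS*, the farnesyl diphosphate synthase, had medians of 55.0 CPM in *C* and 29.6 CPM in *T* + *WSD* (log2 fold change -0.70 ± 0.21, edgeR adjusted p = 0.0247). The call of *FDPS* was lost in 3 of the 12 fits, with adjusted p up to 0.0614. Of 13 genes of cholesterol efflux and storage, 4 were called higher, against 4.72% of all tested genes, and none lower, and the median was 0.42. Leaving out *C* replicate 1 left 2 of them called. *ABCA1*, the transporter that passes cholesterol to lipid-poor apolipoprotein, ran from 258 to 360 CPM (median 294) in *C* and from 406 to 617 CPM (median 482) in *T* + *WSD* with no overlap (log2 fold change 0.71 ± 0.20, edgeR adjusted p = 0.0167). *PLTP*, the phospholipid transfer protein, rose from a median of 190 to 343 CPM (log2 fold change 0.78 ± 0.21, edgeR adjusted p = 0.0145). The sterol-sensing receptor gene *NR1H3* and the lipoprotein receptor gene *SCARB1* were called at adjusted p of 0.0324 and 0.0421, and lost the call in 5 and 8 of the 12 fits.

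Most vascular endothelial markers rose. Of 16 tested markers, 10 were called higher and none lower, against 4.72% of all tested genes called higher, and the median log2 fold change was 0.73. Their summed level ran from 1398 to 2349 CPM in *C* and from 2618 to 3952 CPM in *T* + *WSD*. *PECAM1*, an adhesion molecule of endothelial junctions, ran from 183 to 387 CPM (median 285) in *C* and from 462 to 624 CPM (median 496) in *T* + *WSD* (log2 fold change 0.88 ± 0.16, edgeR adjusted p = 0.00295). *PLVAP*, which forms the diaphragms of capillary pores, ran from 34.0 to 80.6 CPM (median 53.2) in *C* and from 92.6 to 171 CPM (median 118) in *T* + *WSD* (log2 fold change 1.17 ± 0.25, edgeR adjusted p = 0.00523). The adhesion gene *ESAM* and the endothelial matrix gene *MMRN2* had no overlap either, with log2 fold changes of 0.84 and 0.93. The other called markers were *CDH5*, *FLT1*, *NOS3*, *ROBO4*, *TIE1* and *VWF*, with log2 fold changes from 0.63 to 0.97. The VEGF receptor gene *KDR* had a value of -0.33 and was not called. Without *C* replicate 1, 7 of the 16 were called, all higher. Among the 8 libraries low in ENSMMUG00000038258 edgeR called 0, with 10 at an unadjusted p under 0.05. Of 6 lymphatic endothelial markers, only *PDPN* was called, and it was lower (log2 fold change -1.15 ± 0.27, edgeR adjusted p = 0.00857). *PDPN* is also made by mesothelial cells.

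The called mural cell markers were mostly higher. Of 12 smooth muscle and pericyte markers, 4 were called higher and 1 lower, against 4.72% and 5.29% of all tested genes. The median log2 fold change was 0.44. *TAGLN*, an actin-binding protein of smooth muscle, ran from 295 to 381 CPM (median 343) in *C* and from 549 to 1012 CPM (median 625) in *T* + *WSD*, with no overlap (log2 fold change 1.05 ± 0.27, edgeR adjusted p = 0.0121). *RGS5*, a pericyte signalling regulator, ran from 16.8 to 53.6 CPM in *C* and from 59.1 to 94.7 CPM in *T* + *WSD* (log2 fold change 1.15 ± 0.29, edgeR adjusted p = 0.0111). The adhesion molecule *MCAM* and the receptor *NOTCH3* were called with log2 fold changes of 1.19 and 1.15, and each lost its call without *C* replicate 3 (adjusted p = 0.0537 and 0.0557). *LMOD1*, an actin nucleator of smooth muscle, was called lower without overlap, a call lost without *C* replicate 1, where the 4 higher calls were kept. The contractile genes *ACTA2* and *MYH11* were not called at 0.77 and 0.34.

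Of 16 angiogenic signalling genes, 6 were called higher and 1 lower, against 4.72% and 5.29% of all tested genes. Leaving out *C* replicate 1 gave counts of 5 and 1. Of the 16, 15 had a positive log2 fold change (median 0.54). *NOTCH4*, an endothelial Notch receptor, ran from 9.84 to 33.3 CPM (median 26.2) in *C* and from 44.0 to 68.7 CPM (median 51.0) in *T* + *WSD* (log2 fold change 1.16 ± 0.22, edgeR adjusted p = 0.00322). *NRP1*, a co-receptor for VEGF, ran from 203 to 438 CPM in *C* and from 477 to 690 CPM in *T* + *WSD* (log2 fold change 0.80 ± 0.19, edgeR adjusted p = 0.00914). *S1PR1*, the sphingosine phosphate receptor of endothelium, rose from a median of 65.2 to 101 CPM (edgeR adjusted p = 0.00958). In these 3 genes the groups did not overlap. *ENG*, *VEGFC* and *VEGFD* were the other called higher members, at log2 fold changes of 0.59, 0.70 and 1.88. *PGF*, the placental growth factor, fell from a median of 12.9 to 5.18 CPM (log2 fold change -1.34 ± 0.29, edgeR adjusted p = 0.00614). *VEGFA*, the main hypoxia-induced angiogenic ligand, had a log2 fold change of -0.27 and was not called.

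Of 11 hypoxia genes, 3 were called higher and 1 lower, against 4.72% and 5.29% of all tested genes, and the median was -0.27. These counts were 2 and 0 without *C* replicate 1. *EPAS1*, which encodes the hypoxia-inducible factor HIF-2 alpha abundant in endothelium and adipocytes, ran from 233 to 380 CPM (median 344) in *C* and from 559 to 880 CPM (median 604) in *T* + *WSD*. The groups did not overlap (log2 fold change 1.02 ± 0.16, edgeR adjusted p = 0.00226). *ADM*, the vasodilator peptide adrenomedullin, had medians of 35.8 and 93.8 CPM (log2 fold change 1.55 ± 0.49, edgeR adjusted p = 0.0321), and *EGLN3*, an oxygen-sensing hydroxylase, of 14.6 and 28.2 CPM. Their calls were lost in 5 and 7 of the 12 fits that left out 1 animal. *P4HA2*, a collagen prolyl hydroxylase, ran from 37.1 to 62.9 CPM in *C* and from 19.5 to 36.4 CPM in *T* + *WSD* (log2 fold change -0.81 ± 0.24, edgeR adjusted p = 0.0240), a call lost without *C* replicate 1 (0.0764) and without *T* + *WSD* replicate 8 (0.0637). The other 7 members, including *HIF1A* and the kinase *PDK1*, were not called.

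**Figure D3:**
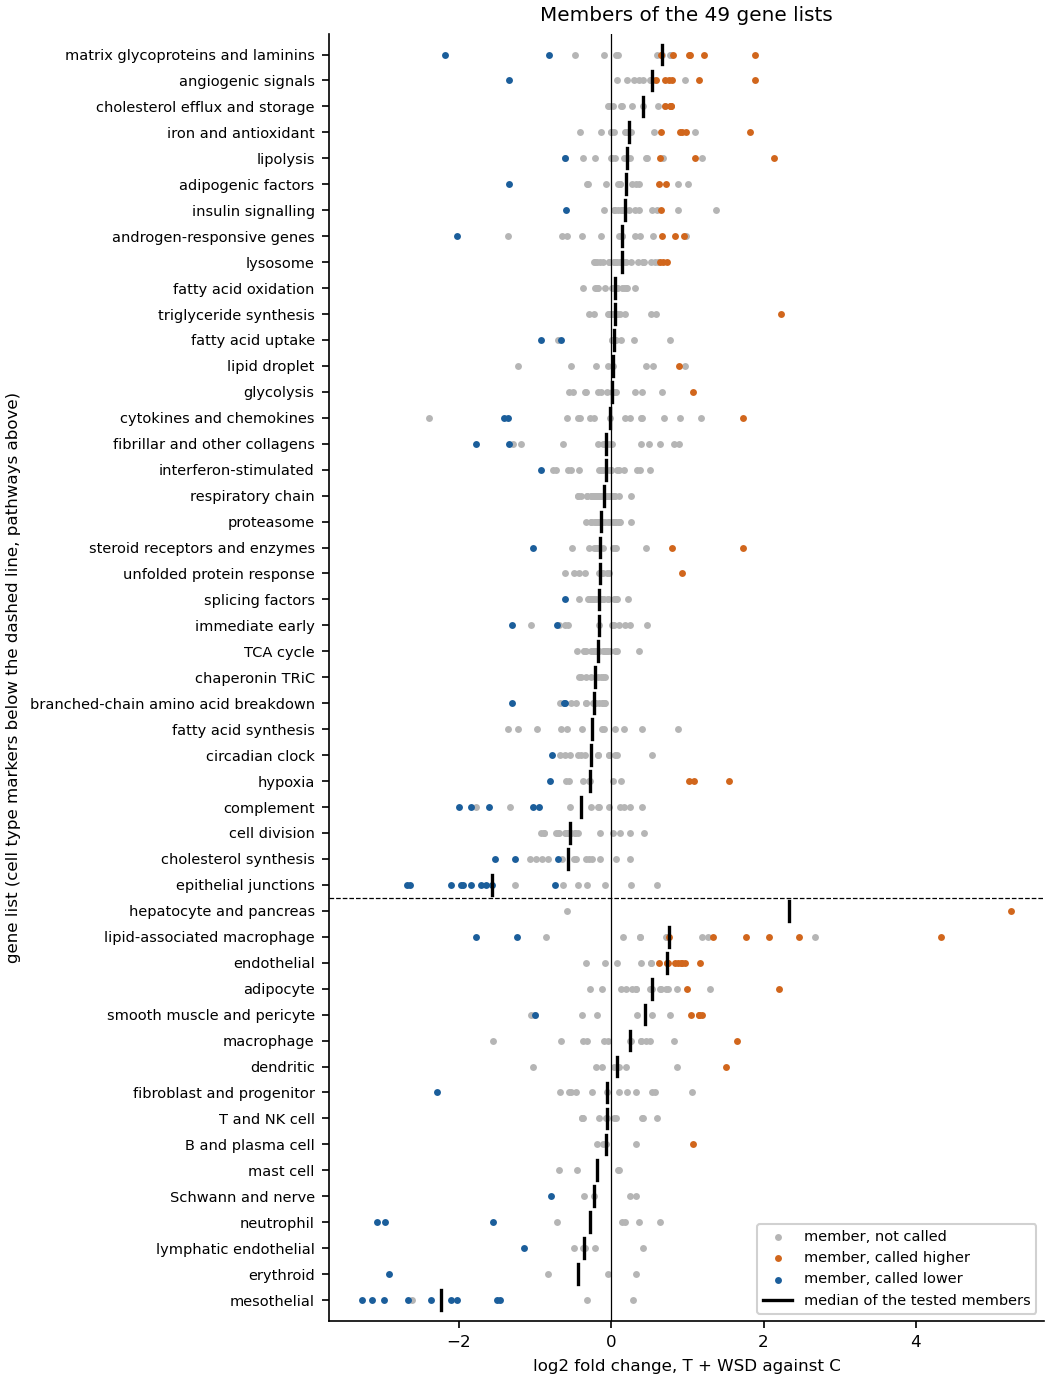
Each row is 1 of the 49 gene lists, and each point is a tested member at its log2 fold change of *T* + *WSD* against *C*, orange if called higher, blue if called lower and grey if not called. Black bars are the medians, which run from -2.24 (mesothelial) to 0.76 (lipid-associated macrophage) except for the 2 tested members of the hepatocyte and pancreas list.

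Basement membrane and matrix genes were called in both directions. The median log2 fold change of 16 matrix glycoprotein and laminin genes was 0.66. Of them, 6 were called higher and 2 lower, against 4.72% and 5.29% of all tested genes. These counts were 3 and 1 without *C* replicate 1, and among the 8 libraries low in ENSMMUG00000038258 edgeR called 0, with 9 at an unadjusted p under 0.05. *LAMA2*, a laminin chain of muscle and fat basement membranes, ran from 75.6 to 194 CPM (median 144) in *C* and from 225 to 357 CPM (median 274) in *T* + *WSD*, with no overlap (log2 fold change 1.02 ± 0.25, edgeR adjusted p = 0.0114). The laminin genes *LAMB2* and *LAMC1* were also called higher, at 0.66 and 0.82, as were *THBS1* at 1.22 and *TNC* at 1.89. *LAMB2* fell under the fold threshold without *C* replicate 1 or 3. *POSTN*, periostin, ran from 226 to 1081 CPM (median 398) in *C* and from 40.7 to 283 CPM (median 91.1) in *T* + *WSD* (log2 fold change -2.19 ± 0.56, edgeR adjusted p = 0.0122). *LAMB1* fell from a median of 667 to 494 CPM, a call lost without *C* replicate 1 (adjusted p = 0.0515). Of 16 collagen genes, none was called higher and 2 were called lower, against 4.72% and 5.29% of all tested genes. *COL6A6* ran from 103 to 458 CPM (median 182) in *C* and from 34.8 to 95.5 CPM (median 60.9) in *T* + *WSD*, with no overlap (log2 fold change -1.78 ± 0.35, edgeR adjusted p = 0.00399). *COL8A1*, a short-chain collagen, was called lower at an adjusted p of 0.0280, but at 0.108 without *C* replicate 1, and lost its call in 4 of the 12 fits. The basement membrane collagens *COL4A1* and *COL4A2* had log2 fold changes of 0.90 and 0.82 without passing.

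Lipid-associated macrophage genes were called in both directions. Of 17 tested genes, 6 were called higher and 2 lower, against 4.72% and 5.29% of all tested genes, and the median log2 fold change was 0.76. Leaving out *C* replicate 1 gave counts of 4 and 1, and among the 8 libraries low in ENSMMUG00000038258 edgeR called 0, with 9 at an unadjusted p under 0.05. *CTSD*, the lysosomal protease cathepsin D, ran from 384 to 679 CPM (median 526) in *C* and from 713 to 1174 CPM (median 883) in *T* + *WSD*, with no overlap (log2 fold change 0.76 ± 0.16, edgeR adjusted p = 0.00475). *SPP1*, osteopontin, had medians of 5.34 CPM in *C* and 48.9 CPM in *T* + *WSD* (log2 fold change 2.47 ± 0.71, edgeR adjusted p = 0.0220). It lost its call without *C* replicate 3 (0.0527) or *T* + *WSD* replicate 7 (0.0545). *CHIT1*, *GPNMB*, *ITGAX* and *MMP9* were the other called higher members, at log2 fold changes of 4.33, 1.34, 1.77 and 2.08. The lipid receptor gene *TREM2* had medians of 3.95 and 10.4 CPM and did not pass (log2 fold change 1.27 ± 0.49, edgeR adjusted p = 0.0751), though it did without *C* replicate 6 (0.0124) and by DESeq2 (0.041). *CD9*, a tetraspanin also present on other cells, ran from 90.5 to 283 CPM (median 120) in *C* and from 48.9 to 72.8 CPM (median 61.3) in *T* + *WSD* (log2 fold change -1.24 ± 0.25, edgeR adjusted p = 0.00442). *PLA2G7*, a secreted phospholipase, fell from a median of 68.7 to 30.9 CPM (edgeR adjusted p = 0.0155), a call lost without *C* replicate 1 (0.0521).

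General macrophage markers gave fewer calls. Of 14, only the scavenger receptor gene *MSR1* was called, higher, against 4.72% of all tested genes (log2 fold change 1.66 ± 0.50, edgeR adjusted p = 0.0269). The list's median was 0.25, with 8 positive and 6 negative values. *MSR1* ran from 4.00 to 29.4 CPM in *C* and from 20.9 to 75.1 CPM in *T* + *WSD*. It lost its call in 4 of the 12 fits that left out 1 animal, up to an adjusted p of 0.0683. The edgeR adjusted p without *C* replicate 1 was 0.0648. *CD68* had medians of 31.7 and 64.5 CPM and was not called (log2 fold change 0.83 ± 0.45, edgeR adjusted p = 0.206). The summed macrophage markers ran from 234 to 1390 CPM in *C* and from 630 to 1186 CPM in *T* + *WSD* and overlapped. The lipid-associated list summed to 2098 to 5675 CPM in *C* and 6137 to 11005 CPM in *T* + *WSD* without overlap. *T* + *WSD* replicate 7 held that highest sum, and the other 5 *T* + *WSD* animals lay at or below 6932 CPM.

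Of 27 lysosomal genes, 3 were called higher, against 4.72% of all tested genes, and none lower, with a median of 0.14. Leaving out *C* replicate 1 left 2 of them called. *LAMP1*, a membrane protein of the lysosome, ran from 151 to 261 CPM (median 198) in *C* and from 282 to 373 CPM (median 313) in *T* + *WSD* (log2 fold change 0.68 ± 0.13, edgeR adjusted p = 0.00367). The cathepsin gene *CTSZ* was called at a log2 fold change of 0.74.

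Genes of iron storage and uptake and of antioxidant defence were called in 1 direction. Of 16 tested genes, 5 were called higher, against 4.72% of all tested genes, and none lower, and the median was 0.23. *NQO1*, the quinone reductase induced by oxidative stress, ran from 16.9 to 81.3 CPM (median 42.6) in *C* and from 132 to 188 CPM (median 148) in *T* + *WSD*, with no overlap (log2 fold change 1.83 ± 0.41, edgeR adjusted p = 0.00677). *FTL*, the ferritin light chain, ran from 279 to 446 CPM in *C* and from 541 to 850 CPM in *T* + *WSD*, again with no overlap (log2 fold change 0.98 ± 0.14, edgeR adjusted p = 0.00226). *TFRC*, the transferrin receptor, had medians of 50.1 and 95.1 CPM (log2 fold change 0.92 ± 0.20, edgeR adjusted p = 0.00616). *FTH1*, the ferritin heavy chain, had medians of 174 and 242 CPM, and its fold change fell under 1.5 without *C* replicate 4 or 5 or *T* + *WSD* replicate 7. *SRXN1*, a sulfiredoxin, was the other called member, at 0.91. The haem oxygenase gene *HMOX1* had a log2 fold change of 1.10 and was not called. Without *C* replicate 1 the count was still 5, and among the libraries low in ENSMMUG00000038258 it was 3.

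Most mesothelial markers fell in *T* + *WSD*. Of 12 tested markers, 9 were called lower and none higher, against 5.29% of all tested genes called lower, and the median log2 fold change was -2.24. Summed, they ran from 2921 to 40399 CPM in *C* and from 399 to 3429 CPM in *T* + *WSD*. *KRT19*, an epithelial keratin, ran from 195 to 450 CPM (median 263) in *C* and from 5.94 to 64.7 CPM (median 52.2) in *T* + *WSD* (log2 fold change -2.66 ± 0.50, edgeR adjusted p = 0.00322). *MSLN*, mesothelin itself, ran from 78.6 to 1709 CPM (median 279) in *C* and from 17.7 to 151 CPM (median 61.6) in *T* + *WSD* (log2 fold change -2.99 ± 0.66, edgeR adjusted p = 0.00650). *PKHD1L1*, a large fibrocystin-like membrane protein, fell from a median of 396 to 98.3 CPM (edgeR adjusted p = 0.00607). The remaining called markers were *KRT18*, *BNC1*, *ITLN1*, *RSPO1*, *UPK3B* and *WT1*, with log2 fold changes from -1.47 to -3.28. *KRT7* (-2.62), *CLDN15* (-0.32) and *CALB2* (0.28) were not called. Without *C* replicate 1, 8 of the 12 were called lower and the median was -1.68. Among the 8 libraries low in ENSMMUG00000038258 edgeR called 0, with 10 at an unadjusted p under 0.05. The mean log2 level of the 12 markers ran from 6.31 to 7.71 in *C* and from 3.35 to 5.57 in *T* + *WSD*, so it did not overlap between the groups, and the treatment and this mean cannot be told apart. With that mean as a covariate no gene was called by edgeR in *T* + *WSD* against *C*, while 505 genes had an unadjusted p under 0.05. In that fit the median log2 fold change was 0.16 for endothelial, 0.06 for cholesterol efflux and storage and 0.65 for lipid-associated macrophage genes. Without the covariate these medians were 0.73, 0.42 and 0.76.

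**Figure D4:**
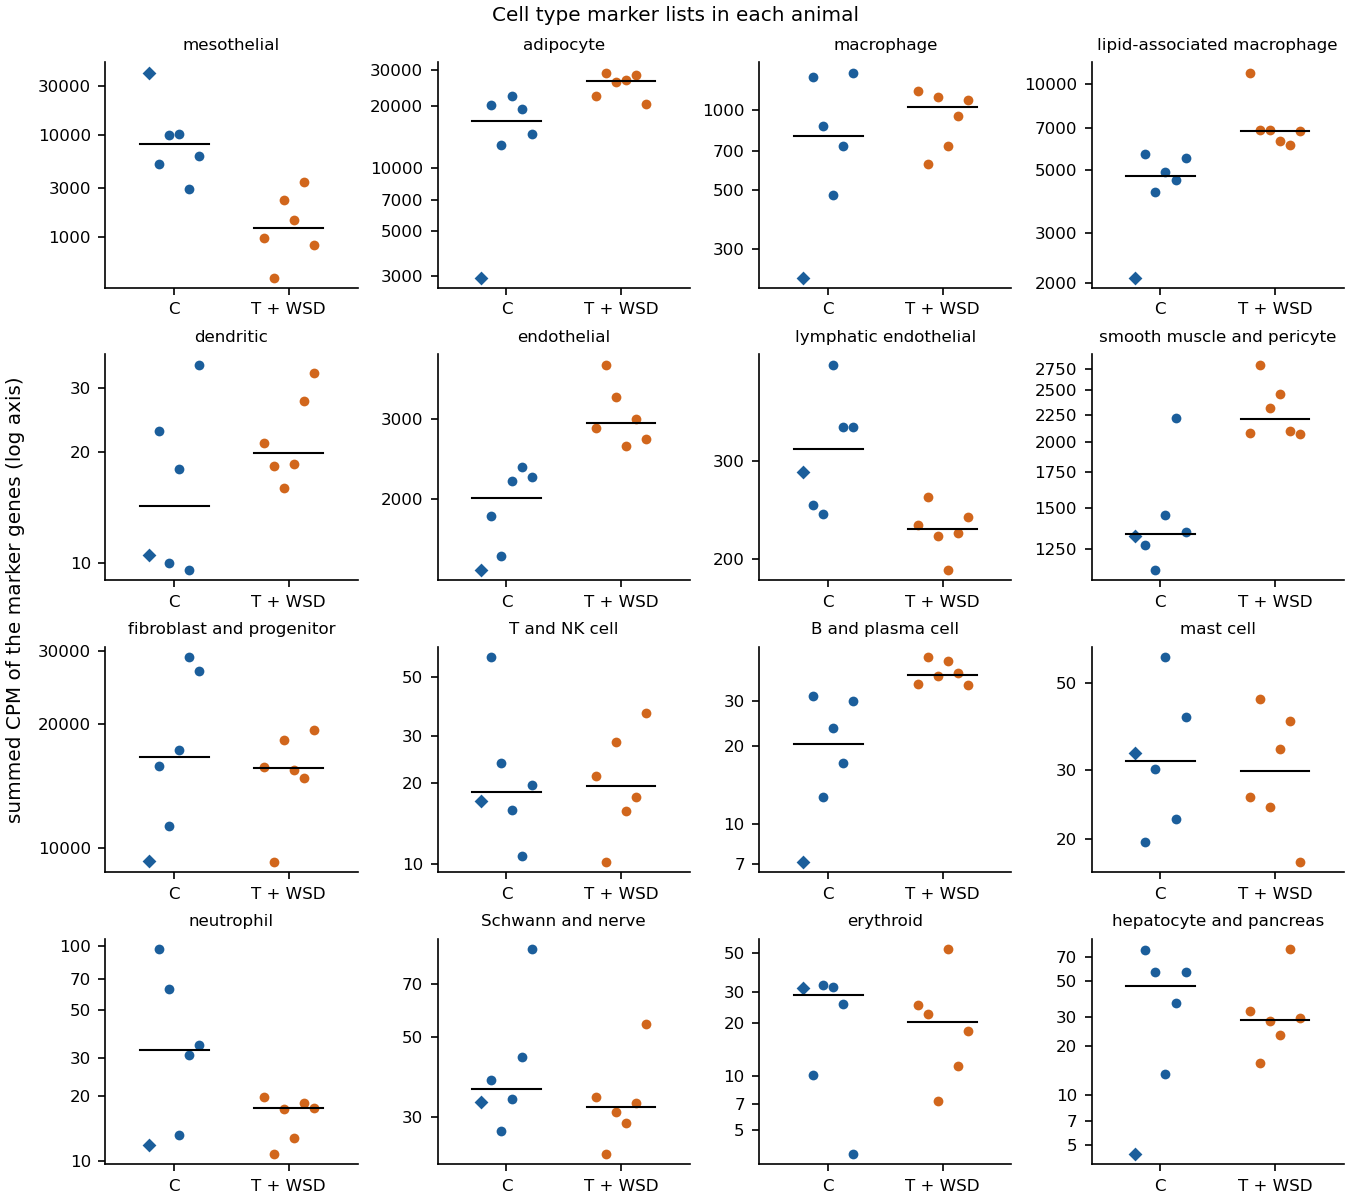
Each panel sums the CPM of 1 list of cell type markers in each of the 6 *C* animals (blue) and 6 *T* + *WSD* animals (orange) on a log axis, with a black line at the group median. The diamond is *C* replicate 1, highest for mesothelial markers (40399 CPM) and lowest for adipocyte (2963 CPM), macrophage (234 CPM) and endothelial (1398 CPM) markers.

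Most epithelial junction genes fell as the mesothelial markers did. Of 17 tested genes, 10 were called lower, against 5.29% of all tested genes, and none higher. The median log2 fold change was -1.57. *DSP*, the desmosome protein desmoplakin, ran from 309 to 1316 CPM (median 433) in *C* and from 23.2 to 206 CPM (median 140) in *T* + *WSD* (log2 fold change -2.11 ± 0.45, edgeR adjusted p = 0.00542). *CGN*, the tight junction protein cingulin, ran from 58.4 to 263 CPM in *C* and from 8.48 to 52.8 CPM in *T* + *WSD* (log2 fold change -1.85 ± 0.38, edgeR adjusted p = 0.00483). The desmosomal cadherin *DSG2* and the polarity gene *LLGL2* had log2 fold changes of -1.97 and -1.57, also without overlap. *CDH1*, *CDH3*, *CLDN1*, *ESRP2*, *OCLN* and *PATJ* were the other called members, from -0.74 to -2.68. The plakoglobin gene *JUP* (-0.08), which many cell types use, was not called. Without *C* replicate 1, 7 of the 17 were called lower. With the mesothelial mean as a covariate 0 were called, and the median log2 fold change was -0.0038. That mean did not overlap between the groups, so the fit cannot separate it from the treatment.

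The 10 largest relative decreases among named genes with separated groups had log2 fold changes from -2.81 (*TEX55*) to -3.74 (*VSTM2L*). *KLK11*, a secreted serine protease, ran from 8.86 to 38.2 CPM (median 14.8) in *C* and from 0.565 to 3.91 CPM (median 2.23) in *T* + *WSD* (log2 fold change -2.92 ± 0.51, edgeR adjusted p = 0.00295). *GJB6*, a gap junction connexin, fell from a median of 5.85 to 1.29 CPM (log2 fold change -2.91 ± 0.68, edgeR adjusted p = 0.00844). *MISP*, an actin-bundling protein, fell from 2.44 to 0.558 CPM, *CLIC3*, a chloride channel family member, from 6.18 to 1.43 CPM, and *SCG5*, a secretory granule protein, from 14.7 to 2.34 CPM. *TEX55* fell from 96.9 to 13.8 CPM (log2 fold change -2.81 ± 0.59, edgeR adjusted p = 0.00505). *VSTM2L*, *TJP3*, *KRT18* and *FLRT3* completed the 10, between -2.95 and -3.74.

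Among genes with separated groups, *C3*, *ALOX15*, *ALDH1A3*, *DSP* and *EZR* lost most in mean CPM. *ALOX15*, a lipoxygenase that oxidizes arachidonic and linoleic acid, ran from 559 to 1308 CPM (median 805) in *C* and from 56.8 to 253 CPM (median 204) in *T* + *WSD* (log2 fold change -2.22 ± 0.45, edgeR adjusted p = 0.00430). *ALDH1A3*, which makes retinoic acid, ran from 498 to 1327 CPM in *C* and from 167 to 354 CPM in *T* + *WSD* (log2 fold change -1.40 ± 0.24, edgeR adjusted p = 0.00295). *EZR*, ezrin, a linker of membrane and actin in microvilli, ran from 314 to 1088 CPM in *C* and from 45.5 to 187 CPM in *T* + *WSD* (log2 fold change -2.17 ± 0.37, edgeR adjusted p = 0.00295). All 3 genes kept their calls when any 1 animal was left out.

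In contrast to the adipocyte product *CFD*, complement genes were called lower. Of 16 tested genes of the complement list, which did not hold *CFD*, 5 were called lower, against 5.29% of all tested genes. None was called higher, and the median was -0.40. The count of lower genes was 3 without *C* replicate 1. *C3*, the central component, ran from 3671 to 18030 CPM (median 5267) in *C* and from 1291 to 3466 CPM (median 2533) in *T* + *WSD*. Its groups did not overlap (log2 fold change -1.61 ± 0.41, edgeR adjusted p = 0.0119), and without *C* replicate 1 the log2 fold change was -1.11 with an adjusted p of 0.0485. *CFB*, factor B of the alternative pathway, ran from 493 to 3498 CPM (median 1301) in *C* and from 135 to 546 CPM (median 409) in *T* + *WSD* (log2 fold change -1.99 ± 0.41, edgeR adjusted p = 0.00452). *CFI*, the protease that inactivates C3b, ran from 48.0 to 173 CPM in *C* and from 14.98 to 34.0 CPM in *T* + *WSD*, without overlap (log2 fold change -1.84 ± 0.35, edgeR adjusted p = 0.00322). The classical pathway protease *C1S* was called at -0.95, a call lost without *C* replicate 1 (adjusted p = 0.0874) and *T* + *WSD* replicates 8 (0.060) and 10 (0.053). The summed complement list was highest in *C* replicate 1 at 25154 CPM, the animal with the highest mesothelial sum. With the mesothelial mean as a covariate, *C3*, *CFB* and *C1S* had positive log2 fold changes of 0.26, 0.02 and 0.24 and were not called. *CFI* kept a negative log2 fold change under every alternative, of -0.29 at the highest. The mesothelial mean did not overlap between the groups, so the covariate fit cannot separate it from the treatment.

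Sex steroid receptors and androgen-responsive genes gave calls in both directions. *ESR1*, which encodes oestrogen receptor alpha, ran from 9.57 to 21.9 CPM (median 11.1) in *C* and from 5.37 to 9.19 CPM (median 6.48) in *T* + *WSD*, without overlap (log2 fold change -1.03 ± 0.23, edgeR adjusted p = 0.00621). *STS*, the steroid sulfatase that frees sulfated steroids, ran from 4.55 to 20.03 CPM (median 16.5) in *C* and from 33.5 to 69.0 CPM (median 44.9) in *T* + *WSD*, also without overlap (log2 fold change 1.73 ± 0.37, edgeR adjusted p = 0.00523). *GPER1*, the membrane oestrogen receptor, was called higher at an adjusted p of 0.0439 and lost the call in 8 of the 12 fits that left out 1 animal. These were the 3 called genes among 14 tested receptors and enzymes, against 10% of all tested genes called.

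Of 16 androgen-responsive genes known from other tissues, 3 were called higher and 1 lower, against 4.72% and 5.29% of all tested genes. The median was 0.14. *CAMKK2*, a calcium-dependent kinase, ran from 59.0 to 100.1 CPM in *C* and from 100.3 to 143 CPM in *T* + *WSD* (log2 fold change 0.66 ± 0.15, edgeR adjusted p = 0.00777). *STEAP4*, a metalloreductase of adipose tissue, had medians of 56.7 and 116 CPM (log2 fold change 0.96 ± 0.23, edgeR adjusted p = 0.00893), and *INPP4B*, a lipid phosphatase, of 8.44 and 16.4 CPM. *FKBP5*, a chaperone gene responsive to androgen and glucocorticoid, had medians of 32.4 and 34.3 CPM and was not called (log2 fold change -0.13 ± 0.32, edgeR adjusted p = 0.827).

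Energy metabolism gave few calls. None of 20 TCA cycle genes and none of 37 respiratory chain genes was called by edgeR or DESeq2, with 3 and 1 at an unadjusted p under 0.05. Among the TCA cycle genes 17 had a negative log2 fold change (median -0.17), as did 32 of the respiratory chain genes (median -0.09), where the median over all tested genes was -0.04. *ATP5F1A*, the alpha subunit of ATP synthase, had medians of 692 CPM in *C* and 552 CPM in *T* + *WSD* (log2 fold change -0.22 ± 0.20, edgeR adjusted p = 0.484). Of 15 glycolysis genes only *HK2*, a hexokinase, was called (adjusted p = 0.0484), and the call was lost in 11 of the 12 fits that left out 1 animal. All 18 genes of branched-chain amino acid breakdown had a negative log2 fold change (median -0.23). Of these, 3 were called lower, against 5.29% of all tested genes. *PPM1K*, the phosphatase that activates the branched-chain ketoacid dehydrogenase, ran from 15.8 to 47.4 CPM (median 25.0) in *C* and from 7.59 to 19.6 CPM (median 9.85) in *T* + *WSD* (log2 fold change -1.30 ± 0.29, edgeR adjusted p = 0.00696). The transaminase gene *BCAT2* and the carboxylase subunit gene *MCCC2* had log2 fold changes of -0.61 and -0.62, and lost their calls in 4 and 3 of the 12 fits. The 3 calls were kept without *C* replicate 1.

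The calls among insulin signalling and adipogenic factors depended on single animals. Over all tested genes, 4.72% were called higher and 5.29% lower. All 6 *T* + *WSD* animals lay above every *C* animal for 3.49% of them. Of 17 insulin signalling genes, the regulatory kinase subunit *PIK3R1* was called higher (log2 fold change 0.65 ± 0.20, edgeR adjusted p = 0.0317) and the receptor-binding inhibitor *GRB10* lower (-0.59 ± 0.20, edgeR adjusted p = 0.0499). Both calls were lost without *C* replicate 1, at adjusted p of 0.0716 and 0.175, and in 5 and 9 of the 12 fits. Of 14 adipogenic factors, *EBF1* and *NR2F2* were called higher without overlap and *CEBPD* lower. *NR2F2*, an orphan nuclear receptor, ran from 35.0 to 65.9 CPM in *C* and from 66.7 to 84.9 CPM in *T* + *WSD*. Their log2 fold changes were 0.72, 0.63 and -1.34, and the calls were lost in 4, 3 and 8 of the 12 fits. None of the 3 was called by edgeR without *C* replicate 1. Of 11 genes of fatty acid uptake, *VLDLR*, a lipoprotein receptor, fell from a median of 74.7 to 37.4 CPM (log2 fold change -0.92 ± 0.23, edgeR adjusted p = 0.0115), and *ACSL4*, an acyl-CoA synthetase, from 195 to 132 CPM, a call lost in 5 fits.

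The other lists of immune and minor cell types each held at most 3 called markers. None of 11 T and NK cell markers and none of 4 mast cell markers was called by edgeR or DESeq2, and 0 of either had an unadjusted p under 0.05. Of 8 neutrophil markers, 3 were called lower, against 5.29% of all tested genes. Their median log2 fold change was -0.29, with 4 positive and 4 negative values. *S100A9*, a calcium-binding protein of myeloid cells, ran from 1.11 to 26.9 CPM (median 9.47) in *C* and from 0.832 to 2.63 CPM (median 1.12) in *T* + *WSD* (log2 fold change -3.08 ± 0.88, edgeR adjusted p = 0.0207). *S100A8* lost its call in 8 of the 12 fits. *BANK1*, a B cell scaffold, was the 1 called gene of 5 B and plasma cell markers (median -0.07). It was higher, against 4.72% of all tested genes, and its call was likewise lost in 8 fits. Its edgeR adjusted p without *C* replicate 1 was 0.0701. *CLEC10A*, a lectin of dendritic cells and macrophages, rose from a median of 2.51 to 9.89 CPM (log2 fold change 1.51 ± 0.37, edgeR adjusted p = 0.0107). Of 13 fibroblast and progenitor markers, only *DPP4* was called, lower, and without *C* replicate 1 its adjusted p was 0.0618. The progenitor receptor gene *PDGFRA* had medians of 335 and 395 CPM and was not called (log2 fold change 0.21 ± 0.14, edgeR adjusted p = 0.297). *ALB*, a liver gene, was called higher, but the value came mostly from *T* + *WSD* replicate 11 at 34.3 CPM, and without it the adjusted p was 0.0611. *AHSP*, an erythroid chaperone, fell from a median of 2.36 to 0.352 CPM (edgeR adjusted p = 0.0111), and *MBP*, a myelin gene, from 13.4 to 8.28 CPM, a call lost without *C* replicate 1 (0.0516).

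Of 17 cytokine and chemokine genes, 1 was called higher and 2 lower, against 4.72% and 5.29% of all tested genes. *CXCL14*, a chemokine of adipocytes and fibroblasts, ran from 1.46 to 12.6 CPM (median 5.36) in *C* and from 16.6 to 27.7 CPM (median 20.1) in *T* + *WSD* (log2 fold change 1.72 ± 0.46, edgeR adjusted p = 0.0146). *CXCL16*, a scavenger receptor and chemokine, ran from 32.6 to 84.5 CPM (median 56.0) in *C* and from 10.2 to 29.9 CPM (median 22.7) in *T* + *WSD* (log2 fold change -1.36 ± 0.36, edgeR adjusted p = 0.0144). Neither overlapped between groups. *IL33*, an alarmin of stromal and mesothelial cells, fell from a median of 23.3 to 13.8 CPM, a call lost without *C* replicate 4 (0.0698). The inflammatory genes *TNF*, *IL6* and *CCL2* had log2 fold changes of -0.41, 0.40 and -0.22 and were not called. Of 18 interferon-stimulated genes only *OAS1* was called, lower (log2 fold change -0.92 ± 0.26, edgeR adjusted p = 0.0180).

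General cellular programmes were mostly uncalled. Among all tested genes, 4.72% were called higher and 5.29% lower. None of 27 proteasome genes, 8 chaperonin TRiC genes and 21 cell division genes was called by edgeR or DESeq2, with 5, 4 and 1 at an unadjusted p under 0.05. *CCT3*, a TRiC subunit, passed the adjusted p (0.0184) but not the fold threshold, and its *T* + *WSD* values of 119 to 149 CPM lay below the 150 to 194 CPM of *C*. Of 11 unfolded protein response genes, *ASNS*, the asparagine synthetase, rose from a range of 8.76 to 20.9 CPM to 21.8 to 36.4 CPM (log2 fold change 0.93 ± 0.25, edgeR adjusted p = 0.0146), while the chaperone gene *HSPA5* was not called at -0.11. Of 14 circadian genes, *HLF* fell from a median of 14.9 to 7.92 CPM, and of 21 splicing genes, *HNRNPA1* fell from 201 to 133 CPM. The call of *HNRNPA1* was lost without *C* replicate 1 or 2 or *T* + *WSD* replicate 9 and by DESeq2. *MYC*, a growth regulator of the immediate early list, ran from 61.6 to 166 CPM (median 86.2) in *C* and from 29.1 to 52.7 CPM (median 35.8) in *T* + *WSD* (log2 fold change -1.30 ± 0.33, edgeR adjusted p = 0.0126). *JUND* was the other called gene of that list, also lower, and lost its call in 8 of the 12 fits.

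The levels in the singly treated groups placed the named genes differently. Against *WSD*, *T* + *WSD* differed in 124 of 15207 genes (0.815%), 66 higher (0.434%) and 58 lower (0.381%). Against *T* it differed in 574 (3.77%), 356 higher (2.34%) and 218 lower (1.43%). The count against *WSD* ranged from 9 to 448 over the fits that left out 1 animal, so the count depended on single animals. The *FTL* medians of 342 CPM (*C*), 380 CPM (*T*), 370 CPM (*WSD*) and 680 CPM (*T* + *WSD*) differed, and *T* + *WSD* lay above both *WSD* (log2 fold change 0.85, edgeR adjusted p = 0.00993) and *T* (0.88, edgeR adjusted p = 0.00247). *TM7SF2* likewise differed from both, with medians of 49.8, 59.3, 45.4 and 17.4 CPM and log2 fold changes of -1.25 against *WSD* (edgeR adjusted p = 0.0227) and -1.78 against *T* (edgeR adjusted p = 0.00113). *EZR* and *CCDC136* passed in both comparisons as well, as did *STMN2*.

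Other genes had *WSD* levels near those of *T* + *WSD*. *STS* medians were 16.5 CPM (*C*), 17.2 CPM (*T*), 41.9 CPM (*WSD*) and 44.9 CPM (*T* + *WSD*), and *T* + *WSD* differed from *T* (log2 fold change 1.26, edgeR adjusted p = 0.0399) with no call against *WSD* (0.33, edgeR adjusted p = 0.642). *HK2* had medians of 22.1, 14.4, 45.1 and 40.2 CPM in the same groups. *ABCA1* had medians of 294, 320, 496 and 482 CPM and was called against neither single treatment (edgeR adjusted p = 0.0656 against *T* and 0.942 against *WSD*). *PPM1K* had medians of 25.0, 16.96, 10.4 and 9.85 CPM and differed from neither *T* (edgeR adjusted p = 0.174) nor *WSD* (0.954) beyond the threshold. *TAGLN* had medians of 343, 341, 329 and 625 CPM, with *T* + *WSD* above *T* (log2 fold change 1.05, edgeR adjusted p = 0.0261) and just short of the threshold against *WSD* (1.02, edgeR adjusted p = 0.0502). *TREM2*, not called against *C*, was called against *T* (log2 fold change 1.79, edgeR adjusted p = 0.0364). *KRT19* stepped down over medians of 263, 224, 122 and 52.2 CPM, and *T* + *WSD* differed from *T* (log2 fold change -2.45, edgeR adjusted p = 0.00957) but not past the threshold from *WSD* (-1.67, edgeR adjusted p = 0.0690). A p that missed the threshold does not show that levels were alike.

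**Figure D5:**
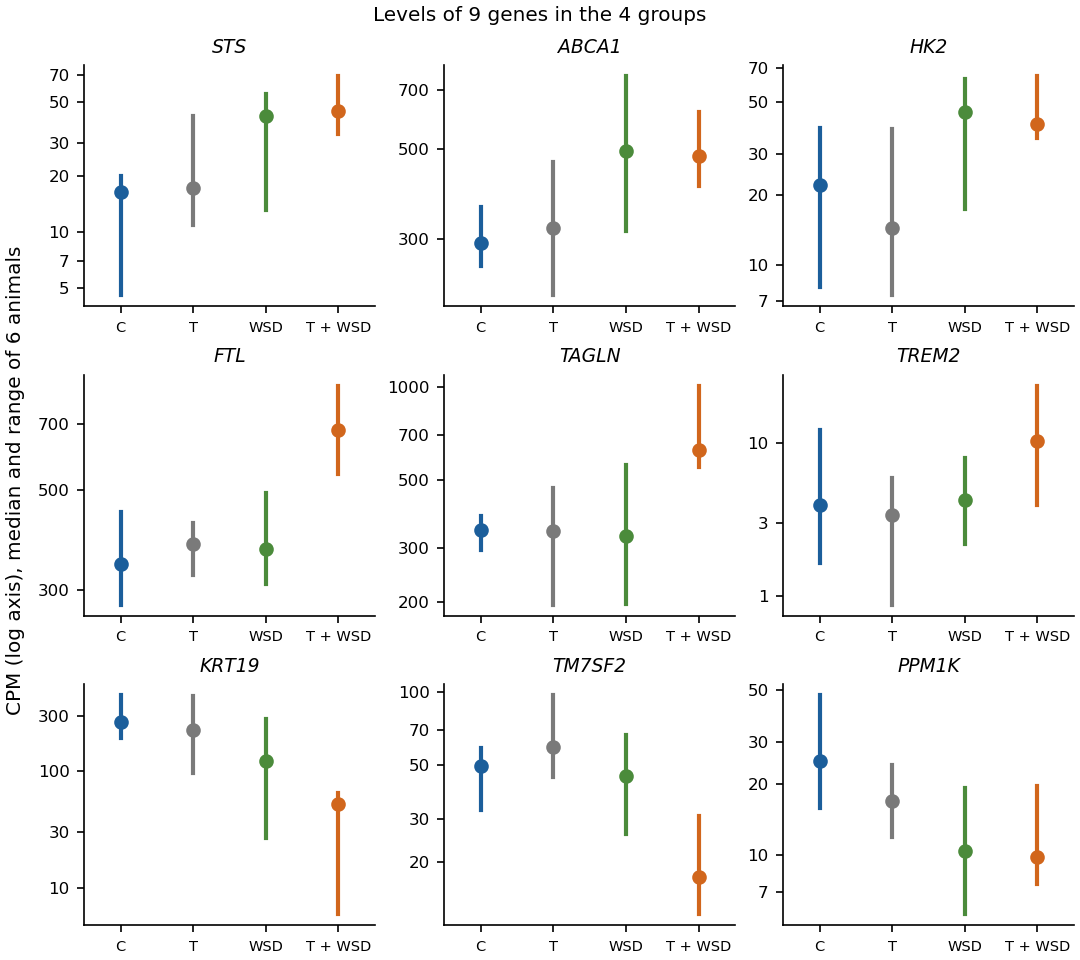
Each panel shows 1 gene in the 4 groups, with a point at the median CPM and a line from the lowest to the highest of 6 animals, on a log axis. The medians of *STS*, *ABCA1*, *HK2* and *PPM1K* in *WSD* lie near those of *T* + *WSD*, whereas those of *FTL*, *TAGLN* and *TM7SF2* in *T* and *WSD* lie near those of *C*.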

How the data were processed

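Omental WAT biopsies of 24 female rhesus macaques gave 1 ribosomal RNA-depleted, single-read RNA-seq library each. The sample labels set the groups. The authors used FastQC 0.11.5 for read quality, Trimmomatic 0.36 for trimming and STAR 2.5.2b for alignment to the rheMac8 assembly (versions as in the submitters' processing notes), and they deposited raw read counts for 32386 Ensembl genes without normalization. They tested with DESeq2 1.18.1. The counting tool and its strand setting are not given in the sources used here, so overlapping, antisense and near-identical genes are uncertain.

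The test was the quasi-likelihood F-test of edgeR 4.0.16 (R 4.3.3, robust and legacy estimation) on TMM-normalized counts, in 1 fit with 4 group means over 24 animals. The filter filterByExpr (minimum count 10, minimum total 15) kept 15207 genes. Adjusted p values are two-sided and Benjamini-Hochberg corrected over all tested genes. The SE after ± is the absolute log2 fold change divided by the square root of the F statistic of this fit of 24 animals. Calls needed a fold change over 1.5 and an adjusted p below 0.05. All adjusted p in the text are from edgeR unless DESeq2 is named. Labels name separate animals, and 0 of the 30 within-group pairs of *C* and *T* + *WSD* libraries held identical values. Total counts ran from 6899185 to 22040690 in these 12 libraries, which limits the precision of low genes to counting error. CPM values are counts over TMM-scaled library size. Levels are compared between animals and not between genes, since no gene lengths were used. No genome, gene positions or sequences were used here.

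The 49 gene lists were written from general knowledge, 16 of cell type markers and 33 of pathways. Of their 866 symbols, 728 matched a gene through the gene name table, and 698 different genes were tested. The other 138 were not analysed here. The comparison and the lists were chosen with earlier results of these data known, so lists are described by counts and medians without a test. Named genes were the 10 largest increases and 10 largest decreases among called genes with a symbol, a mean of at least 1 CPM and separated groups, the 5 largest gains and 5 largest losses in mean CPM likewise, up to 4 called members of each list by smallest p (or the 2 most abundant where none was called), and a fixed set of marker and receptor genes. Other list members, given with a fold change alone, were chosen after their values were seen. Alternatives were RLE or upper-quartile normalization, no filter, DESeq2 1.42.0, libraries with ENSMMUG00000038258 over 5% of counts (a grouping inferred from that share, since the labels name no batch) as a covariate or left out, that gene's counts removed, the mesothelial mean as a covariate, only the 2 groups compared, other fold thresholds and each animal left out. The edgeR script was tested on simulated counts with known changes. Some members of the lists are counted but not reported here by name. The DNA methylation data were not analysed here.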

Additional observations from a re-analysis of the deposited data

Results flagged for a closer look

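In 386 sets of 6 values (the summed CPM of the 49 lists and the CPM of the 144 of the named genes, in *C* and in *T* + *WSD*, on the log2 scale with 0.5 added), the highest or lowest animal stood apart by Dixon's gap rule at the 95% level in 41, or 10.6%. Chance flags about 5% of such sets, and genes of 1 list are not independent. The animals *C* replicate 1 and *T* + *WSD* replicate 8 held 13 and 12 of these values.

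*C* replicate 1 was the lowest *C* animal for the summed adipocyte (2963 CPM), lipid-associated macrophage (2098), fatty acid uptake (1544), TCA cycle (1604), respiratory chain (2142) and glycolysis (1254) lists. It was also lowest for *FASN* (190 CPM), *ADORA1* (1.07), *PC* (101), *ATP5F1A* (379), *ATP5F1B* (92.2) and *S1PR1* (39.1), and highest for *MBP* (22.3 CPM). *T* + *WSD* replicate 8 was lowest among *T* + *WSD* animals for the fibroblast and progenitor list (9276 CPM) and for *ALOX15* (56.8), *DSP* (23.2), *KRT19* (5.94), *DSG2* (10.5) and *CFB* (135). It was highest for the triglyceride synthesis (6871 CPM) and hypoxia (1604) lists and for *SVEP1* (2032), *MMRN2* (130.0), *ESAM* (114) and *EPAS1* (880).

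*T* + *WSD* replicate 12 was lowest in its group for *NRCAM* (18.3 CPM), *RNF157* (12.6), *LEP* (592) and *NPR3* (57.1) and highest for the respiratory chain list (3453), *ATP5F1A* (650.1) and *PPM1K* (19.6). *T* + *WSD* replicate 7 was highest for the lipid-associated macrophage (11005 CPM) and lysosome (6891) lists, *MMP7* (32.2) and *HLF* (10.5), and *T* + *WSD* replicate 11 for *VLDLR* (54.2 CPM) and *FDPS* (39.5). Among the other *C* animals, replicate 2 was highest for *LCK* (12.5 CPM), replicate 3 for *BCAT2* (42.2) and replicate 5 for the smooth muscle and pericyte list (2214). Why these animals stood apart was not tested.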

How the results depend on the processing

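For *T* + *WSD* against *C*, the count of 1522 called genes stayed within 1.5 times under RLE (1521) and upper-quartile normalization (1530), no filter (1361), ENSMMUG00000038258 high or low as a covariate (1499), removal of ENSMMUG00000038258 (1537), only the 2 groups (1415) and DESeq2 (1894). It was 78 with only the libraries low in that gene and 0 with the mesothelial mean as a covariate. Without a fold-change threshold it was 2603, and at a fold change over 2 it was 840. Leaving out 1 animal gave 900 (without *C* replicate 1) to 1790 (without *C* replicate 5). The share of called genes that were higher was 47.2%, and over the normalizations it reached 51.3%. The median log2 fold change over all genes, -0.04, lay between -0.05 and 0 under every alternative.

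For *T* + *WSD* against *WSD* (124), the counts were 68 without the filter, 0 with only those libraries (1911 genes at an unadjusted p under 0.05 by edgeR), 1 with the mesothelial mean as a covariate, 46 with only the 2 groups, 431 by DESeq2, 254 without a fold-change threshold and 53 at a fold change over 2. Leaving out 1 animal gave 9 (without *WSD* replicate 24) to 448 (without *WSD* replicate 21). The split of 66 higher and 58 lower became 79 and 27 under upper-quartile normalization. For *T* + *WSD* against *T* (574), the counts were 308 with only those libraries, 0 with the mesothelial mean as a covariate (1203 genes at an unadjusted p under 0.05 by edgeR), 1059 with only the 2 groups, 1090 by DESeq2, 988 without a fold-change threshold and 340 at a fold change over 2. Leaving out 1 animal gave 238 (without *T* + *WSD* replicate 10) to 738 (without *T* replicate 14). Fewer animals were fitted with only those libraries and in the fits that left out an animal, and the cause of the other differences was not tested.

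Over 3125 alternative values of the 149 named genes against *C*, 2624 counted as unchanged and 491 kept direction and lost the call. A change of direction was counted only for called genes. The 2624 therefore include uncalled genes that changed sign, such as *HADH* (log2 fold changes from -0.48 to 0.21). Another 3 values gained the call (*FASN* without *C* replicate 1, and *TREM2* without *C* replicate 6 and by DESeq2), and 7 values of called genes turned. These 7 were all with the mesothelial mean as a covariate, at log2 fold changes of 0.34 for *CLIC3*, 0.16 for *TEX55*, 0.26 for *C3*, 0.41 for *DPP4*, 0.26 for *COL8A1*, 0.0196 for *CFB* and 0.24 for *C1S*, none of them called. The mean of the mesothelial markers did not overlap between the groups, so that fit cannot separate them. No paired analysis was possible because the labels number the animals 1 to 24 and the groups share no replicate number. At 6899185 to 22040690 counts per library, genes under about 1 CPM rest on few reads.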
